A study of Mus musculus with 23 samples.

Results

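The comparison described here is that of jejunum from Cpa3Cre/+ with that from Cpa3+/+ (wild type) mice that had been immunized and not challenged, measured by RNA sequencing. The 4 libraries whose titles give immunization without a challenge day were used, 2 of Cpa3Cre/+ and 2 of Cpa3+/+ mice, of 23 libraries in all. Cpa3Cre/+ mice carry Cre at 1 allele of Cpa3, the carboxypeptidase A3 gene, and are labelled mast cell-deficient, and Cpa3+/+ mice carry the intact gene at both alleles. Both groups had received 25 µg of ovalbumin with 2 mg of alum by the intraperitoneal route on days 0 and 14, so that no group of the pair was free of antigen and adjuvant. Cpa3Cre/+ replicate 1 was male, and Cpa3Cre/+ replicate 2 and both Cpa3+/+ libraries were female. The labels used here give no age of the mice. The other 19 libraries came from naive mice and from mice challenged for 1, 3 or 5 days, and served to estimate the spread between libraries and to place the values.

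Mast cells of the gut mucosa mature from blood-borne progenitors under the control of KIT, the receptor for stem cell factor. They store serine proteases of the chymase and tryptase families and carboxypeptidase A3 in granules, and release them when antigen cross-links IgE bound to the high-affinity receptor, whose alpha and beta chains are encoded by Fcer1a and Ms4a2. In mice, Mcpt1 and Mcpt2 are typical of mucosal mast cells, while Mcpt4, Cma1 and the tryptases are typical of connective tissue mast cells. In Cpa3Cre/+ mice the Cre recombinase made by cells that use the Cpa3 promoter is known to be toxic to them, which removes mast cells and lowers the number of basophils. The lesion is thus not confined to the protease Cpa3 encodes, and the remaining Cpa3 allele is intact in any cell that survives.

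Total counts were 14969814 and 14352728 in the Cpa3Cre/+ libraries, against 13809248 and 11911558 in the Cpa3+/+ libraries, within the range of 5476308 to 19342046 over all 23. Levels are given as CPM, counts scaled to a library of common size after TMM scaling, and 1 read in Cpa3Cre/+ replicate 1 corresponded to 0.0728 CPM. Fold changes are log2 ratios of Cpa3Cre/+ to Cpa3+/+ from edgeR's quasi-likelihood fit of 17236 genes in all 23 libraries with sex as a covariate, with a standard error (SE). The sex labels were read first. Xist stood at 1.02 and 212 CPM in Cpa3Cre/+ replicates 1 and 2, against 516 and 598 CPM in Cpa3+/+. The Y-linked gene Eif2s3y stood at 75.6 and 3.13 CPM in the Cpa3Cre/+ libraries, against 0 and 0.0811 CPM in Cpa3+/+. The 3.13 CPM of the female Cpa3Cre/+ library lay inside the range of 0 to 7.78 CPM of the 15 other female libraries and below the lowest male library at 39.8 CPM. The 2 libraries of a genotype differed by an SD of log2 differences of 0.548 in Cpa3Cre/+ and 0.503 in Cpa3+/+, below the median of 0.643 of the 14 pairs in the other groups. Apart from the different sex of the Cpa3Cre/+ libraries, no label states that replicates are different mice. The p-values therefore cover only the variation from library to library, part of which may be technical.

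The targeted gene separated the genotypes. Cpa3 (ENSMUSG00000001865, chromosome 3, 20215620 to 20242181, minus strand, GRCm38) had 0.291 and 0.153 CPM in Cpa3Cre/+ jejunum, against 2.42 and 4.05 CPM in Cpa3+/+ jejunum. The group means were 0.222 ± 0.0979 CPM in Cpa3Cre/+ and 3.24 ± 1.16 CPM in Cpa3+/+ (SD, n = 2 each). These levels rested on 6 reads in the 2 Cpa3Cre/+ libraries against 85 in the 2 Cpa3+/+ libraries, a level 14.2-fold lower in Cpa3Cre/+ (exact 95% interval for counting error 6.25 to 39.7). The log2 fold change was −3.64 ± 1.01 (SE), with an unadjusted p of 0.0021 and an adjusted p of 1 in the edgeR fit. In bulk tissue, fewer cells of a type and less RNA per cell cannot be told apart.

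The mast cell proteases were lower in Cpa3Cre/+ jejunum, with 1 exception. Mcpt1 (chromosome 14, 56017971 to 56020384), which had the most reads of them and encodes a chymase of mucosal mast cells, had 4.37 and 5.19 CPM in Cpa3Cre/+, against 26.5 and 53.7 CPM in Cpa3+/+. Mcpt2 (chromosome 14, 56042041 to 56044642), its mucosal relative, had 1.09 and 1.76 CPM in Cpa3Cre/+, against 10.5 and 20.0 CPM in Cpa3+/+. Both Cpa3Cre/+ libraries lay below both Cpa3+/+ libraries in each case, and the higher of the Cpa3+/+ values was in replicate 2. The log2 fold changes were −3.31 ± 0.81 for Mcpt1 and −3.59 ± 0.91 for Mcpt2 (edgeR unadjusted p = 0.000752 and 0.00094). In the 19 libraries of the other states Mcpt1 ran from 6.34 to 397 CPM and Mcpt2 from 1.71 to 137 CPM, so that Mcpt1 in both immunized Cpa3Cre/+ libraries and Mcpt2 in replicate 1 were lower than in any other library.

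The other proteases stood at a few reads or none in Cpa3Cre/+ jejunum. Mcpt9, a chymase-related protease of the chromosome 14 cluster, had 0 and 0.153 CPM in Cpa3Cre/+, against 2.14 and 3.97 CPM in Cpa3+/+, a ratio of 40.0-fold lower in Cpa3Cre/+ with a counting interval of 10.7 to 336. Mcpt4, a chymase, had 0 and 0.153 CPM in Cpa3Cre/+, against 1.04 and 1.78 CPM in Cpa3+/+ (18.5-fold lower, counting interval 4.78 to 159). The tryptase Tpsb2 had 0 and 0.0764 CPM in Cpa3Cre/+, against 0.898 and 1.95 CPM in Cpa3+/+ (37.0-fold lower, counting interval 6.25 to 1501). In these 3 genes, as for Cpa3, both Cpa3Cre/+ libraries lay below both Cpa3+/+ libraries and Cpa3+/+ replicate 2 was highest. The chymase genes Cma2 and Cma1 were scarce in both genotypes. Cma2 had 0 and 0.0764 CPM in Cpa3Cre/+, against 0.207 and 1.38 CPM in Cpa3+/+. Cma1 had no read in either Cpa3Cre/+ library, against 6 and 3 reads in the Cpa3+/+ libraries. With a floor of 3 counts over both Cpa3Cre/+ libraries Cma1 was 3.00-fold lower, and its counting interval began at 1.98-fold lower. Tpsab1, Mcpt8 and Ctsg had too few reads to be tested in this comparison, with at most 6 reads in any of the 4 libraries. Tpsg1, a membrane-anchored tryptase, was the exception. It had 9.75 and 9.55 CPM in Cpa3Cre/+, against 7.39 and 7.14 CPM in Cpa3+/+ (log2 fold change 0.39 ± 0.44, edgeR unadjusted p = 0.386).

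Of the 12 listed proteases 9 were tested, 8 of them had a negative fold change, and their median log2 fold change was −4.33, against a median of 0.02 over all 17236 genes tested. Of the 9, 8 passed an unadjusted edgeR p of 0.05 in the lower direction, which 0.441% of all genes tested did (0.511% did in the higher direction). The same 8 had groups that did not overlap and means at least 2-fold apart, as did 3.06% of all genes tested (1.83% in the higher direction). The fitted fold changes of genes at 0 to 2 reads depend on the prior count and are not bounds. Short reads can be shared within the family: 39.8% of the 50-base windows of Cma2 transcripts occur in another gene, mainly Mcpt9. The shares were 18.8% for Mcpt9, 5.48% for Mcpt4, 5.38% for Cma1 and 0% for Mcpt1, Mcpt2, Cpa3 and Tpsb2. No protease passed the adjustment over all genes in this fit. Without the filter on low counts 7 of the 12 proteases did.

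**Figure D1:**
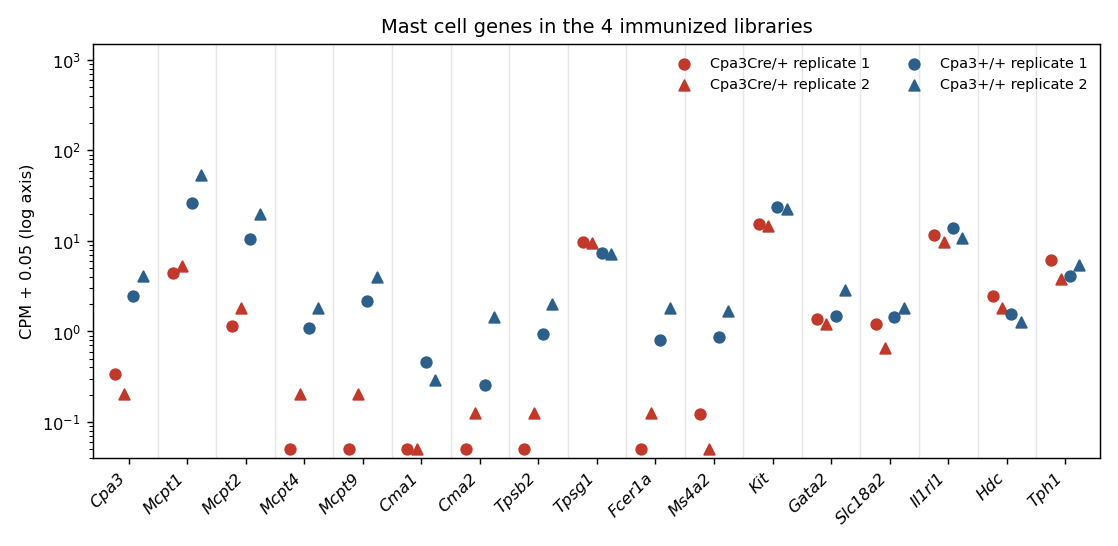
Level of each tested mast cell protease and 8 further mast cell genes in the 4 immunized libraries, as CPM + 0.05 on a log axis, so that a gene at 0 CPM sits at 0.05. Red symbols are Cpa3Cre/+ and blue symbols Cpa3+/+ libraries, with circles for replicate 1 and triangles for replicate 2. The proteases other than Tpsg1, and Fcer1a and Ms4a2, are lower in both Cpa3Cre/+ libraries, while Il1rl1 and Tph1 overlap.

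The IgE receptor chains differed as the proteases did. Fcer1a (chromosome 1, 173221284 to 173227214, minus strand), the IgE-binding alpha chain, had 0 and 0.0764 CPM in Cpa3Cre/+, against 0.76 and 1.78 CPM in Cpa3+/+, that is 1 read against 33 (33.0-fold lower, counting interval 5.53 to 1343). Ms4a2 (chromosome 19, 11615523 to 11623719, minus strand), the signal-amplifying beta chain, had 0.0728 and 0 CPM in Cpa3Cre/+, against 0.829 and 1.62 CPM in Cpa3+/+, also 1 read against 32 (32.0-fold lower, counting interval 5.35 to 1304). The log2 fold changes were −5.06 ± 1.20 for Fcer1a and −5.03 ± 1.40 for Ms4a2 (edgeR unadjusted p = 0.000539 and 0.0022). Fcer1g, the signalling chain that many other leukocytes share, had 12.3 and 14.0 CPM in Cpa3Cre/+, against 15.4 and 12.6 CPM in Cpa3+/+, and the groups overlapped. Basophils carry Fcer1a and Ms4a2 as well. Their own markers were at the limit of detection in both genotypes: Mcpt8 had 0 reads in Cpa3Cre/+ against 2 reads in Cpa3+/+, and Prss34 was at 0 in all 4 libraries. A part of basophils in the difference of the receptor chains was not tested.

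Other genes used by mast cells, most of which other gut cells use too, were not uniformly lower. Kit had 15.5 and 14.5 CPM in Cpa3Cre/+, against 23.8 and 22.5 CPM in Cpa3+/+. The Kit groups did not overlap, but the log2 fold change of −0.43 ± 0.43 gave an edgeR unadjusted p of 0.327. Interstitial cells of Cajal, the pacemaker cells of gut muscle, carry Kit too, and their marker Ano1, a chloride channel, had 8.37 and 5.65 CPM in Cpa3Cre/+, against 14.8 and 10.5 CPM in Cpa3+/+. Of the 8 genes listed for these cells 5 had non-overlapping groups with Cpa3Cre/+ lower, against 22.9% of all genes tested. The list median was −0.15. It was 0.29 without Cpa3Cre/+ replicate 2, in a fit that keeps only the male Cpa3Cre/+ library and takes the sex difference from the other states. In CPM, 6 of the 8 genes were lower in Cpa3Cre/+ replicate 1 than in Cpa3+/+ replicate 2. The share of Kit that comes from either cell type was not tested. Gata2, a transcription factor of mast cells and basophils, had 1.31 and 1.15 CPM in Cpa3Cre/+, against 1.45 and 2.84 CPM in Cpa3+/+. Slc18a2, which loads amines into vesicles, had 1.16 and 0.611 CPM in Cpa3Cre/+, against 1.38 and 1.78 CPM in Cpa3+/+. Hdc, the enzyme of histamine synthesis, was higher in both Cpa3Cre/+ libraries at 2.40 and 1.76 CPM, against 1.52 and 1.22 CPM in Cpa3+/+. For Tph1, which makes serotonin in mast cells and in enterochromaffin cells, and Il1rl1, the interleukin-33 receptor, the libraries of the genotypes overlapped. Of the 20 genes of this second mast cell list 17 were tested, with a median of −0.15. A negative fold change was found in 13 of them, against 46.8% of all genes tested. Without overlap, 9 were lower and 2 higher in Cpa3Cre/+, against 22.9% and 24.9% of all genes tested. Fcer1a and Ms4a2 were the 2 that passed an unadjusted edgeR p of 0.05.

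The proteases and receptor chains that were lower together were compared in their promoters, taken from RefSeq on GRCm38.p6 as 250 bases before to 50 bases after the gene start. GATA2 is a known regulator of mast cell genes, and its core site was searched as AGATAA or TGATAA on both strands. The 2 motifs share GATAA, so they cannot both match at 1 position. An entry was found for 7 of the 10 genes and a motif in 5 of these 7, while 18.6% of all 32851 promoters of this length hold one. The 5 are shown in the direction of transcription with the matched letters in capitals (TTATCT is AGATAA on the other strand), because these genes were the ones lower together.
Cpa3, chr3:20242132-20242431, minus strand: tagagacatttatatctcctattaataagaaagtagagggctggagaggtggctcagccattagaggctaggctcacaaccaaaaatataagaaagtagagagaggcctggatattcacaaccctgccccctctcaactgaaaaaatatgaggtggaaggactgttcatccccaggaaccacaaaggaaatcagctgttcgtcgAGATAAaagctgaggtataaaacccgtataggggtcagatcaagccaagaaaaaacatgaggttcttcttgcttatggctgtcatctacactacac
Mcpt1, chr14:56017714-56018013, plus strand: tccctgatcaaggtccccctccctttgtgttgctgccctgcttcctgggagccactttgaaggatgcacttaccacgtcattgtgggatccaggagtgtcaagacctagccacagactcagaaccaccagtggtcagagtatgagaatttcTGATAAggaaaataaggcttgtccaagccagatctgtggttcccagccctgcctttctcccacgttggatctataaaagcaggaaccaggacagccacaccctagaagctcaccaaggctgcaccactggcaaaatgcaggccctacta
Mcpt4, chr14:56062261-56062560, minus strand: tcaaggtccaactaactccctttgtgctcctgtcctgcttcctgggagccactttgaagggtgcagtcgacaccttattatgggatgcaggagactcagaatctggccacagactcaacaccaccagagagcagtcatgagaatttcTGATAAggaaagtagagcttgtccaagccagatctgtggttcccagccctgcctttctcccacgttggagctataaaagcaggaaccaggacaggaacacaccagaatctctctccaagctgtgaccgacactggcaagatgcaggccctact
Fcer1a, chr1:173227180-173227479, minus strand: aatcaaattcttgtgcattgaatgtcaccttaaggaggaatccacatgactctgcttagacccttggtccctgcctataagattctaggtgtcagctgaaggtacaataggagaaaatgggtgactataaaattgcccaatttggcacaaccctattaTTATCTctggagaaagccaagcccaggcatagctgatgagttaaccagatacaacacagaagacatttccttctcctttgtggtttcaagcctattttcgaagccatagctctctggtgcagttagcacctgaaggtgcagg
Ms4a2, chr19:11623670-11623969, minus strand: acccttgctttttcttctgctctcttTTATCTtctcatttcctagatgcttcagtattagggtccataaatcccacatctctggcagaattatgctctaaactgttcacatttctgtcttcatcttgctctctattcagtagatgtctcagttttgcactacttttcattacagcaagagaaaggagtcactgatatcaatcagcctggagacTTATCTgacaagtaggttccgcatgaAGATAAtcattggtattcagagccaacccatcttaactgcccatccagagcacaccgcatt
The match began 46 bases before the gene start in Cpa3, 99 in Mcpt1, 103 in Mcpt4 and 92 in Fcer1a, and Ms4a2 held 3 matches at 224, 37 and 11 bases before it. The Mcpt1 and Mcpt4 promoters share an identical run of 53 bases. The promoters of Mcpt9 and Cma1 held neither motif in this window. A match is a string of letters and does not show that the factor binds there.

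Across all genes tested, no gene passed an adjusted p of 0.05 in this comparison (0%, edgeR, smallest adjusted p 1), and DESeq2 called 0 as well. At an unadjusted edgeR p of 0.05 there were 76 genes lower and 88 higher in Cpa3Cre/+. Of the 17236 genes, 22.9% had both Cpa3Cre/+ libraries below both Cpa3+/+ libraries and 24.9% had both above, and the biological coefficient of variation of the fit was 28.6%. The genes named by the smallest p in the lower direction were led by 7 mast cell genes, Fcer1a, Mcpt9, Mcpt1, Mcpt2, Cpa3, Ms4a2 and Mcpt4. The other 3 were not mast cell genes by textbook knowledge. Nxf7, a member of the mRNA export factor family, had 0.146 and 0.305 CPM in Cpa3Cre/+, against 1.17 and 1.14 CPM in Cpa3+/+ (log2 fold change −2.02 ± 0.63). Col6a6, a collagen VI chain, had 0.0728 and 0.153 CPM in Cpa3Cre/+, against 0.345 and 1.78 CPM in Cpa3+/+. Arrdc3, an arrestin-related adaptor, had 32.8 and 26.3 CPM in Cpa3Cre/+, against 47.1 and 41.2 CPM in Cpa3+/+ (log2 fold change −0.60 ± 0.20).

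**Figure D2:**
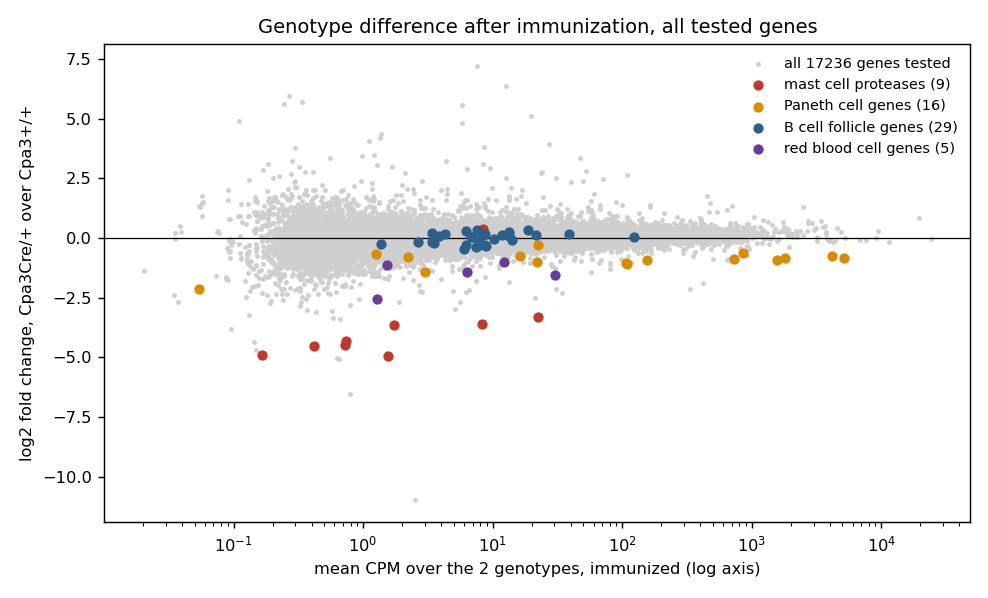
Log2 fold change of Cpa3Cre/+ over Cpa3+/+ after immunization against mean CPM (log axis) for all 17236 genes tested, with 4 gene lists coloured. Of the 9 mast cell proteases 8 lie below −3, the Paneth cell and red blood cell genes lie below 0, and the 29 follicle genes lie around 0.

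The genes named in the higher direction were epithelial or of unassigned cell type. Akp3, an intestinal alkaline phosphatase typical of the duodenum, had 15.6 and 86.1 CPM in Cpa3Cre/+, against 3.45 and 2.84 CPM in Cpa3+/+ (log2 fold change 3.94 ± 1.06, edgeR unadjusted p = 0.00162). Pdx1, a transcription factor of pancreas and proximal duodenum, had 6.04 and 16.6 CPM in Cpa3Cre/+, against 1.45 and 1.22 CPM in Cpa3+/+. S100g, a calcium-binding protein of duodenal enterocytes, had 6.70 and 25.7 CPM in Cpa3Cre/+, against 4.90 and 2.43 CPM in Cpa3+/+. In all 3 the female Cpa3Cre/+ replicate 2 was far above replicate 1, and replicate 1 was above both Cpa3+/+ libraries. B3gnt7, a glycosyltransferase, was even within genotypes, with 58.6 and 56.5 CPM in Cpa3Cre/+, against 22.3 and 24.6 CPM in Cpa3+/+. Slc4a5, a sodium bicarbonate cotransporter, had 58.5 and 48.4 CPM in Cpa3Cre/+, against 33.6 and 23.9 CPM in Cpa3+/+. Gprc5a, an orphan receptor of epithelia, had 19.29 and 33.5 CPM in Cpa3Cre/+, against 5.66 and 8.19 CPM in Cpa3+/+. Sprr1a, a cornified envelope protein that stressed epithelium makes, had 0.582 and 3.67 CPM in Cpa3Cre/+, against 0.138 and 0.0811 CPM in Cpa3+/+. Sun3 and Cdk5r2 had log2 fold changes of 1.64 and 1.46 at group means between 0.375 and 1.16 CPM.

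Fitted alone, the 4 immunized libraries gave a biological coefficient of variation of 17.0% and 8 genes of 15355 at an adjusted p of 0.05 (0.0521%), 4 in each direction. At an unadjusted p of 0.05 this edgeR fit had 7.24% of its genes lower and 8.54% higher in Cpa3Cre/+. The 4 lower genes were Mptx2, the variable segment Ighv8-8, Mmp7 and Ang4. Of these, Mmp7, the protease that activates defensins, and Ang4, an antimicrobial ribonuclease, were in the Paneth cell list used here, and Mptx2 was not. Mptx2, a pentraxin, had 19.9 and 24.0 CPM in Cpa3Cre/+, against 92.9 and 94.6 CPM in Cpa3+/+ (edgeR adjusted p = 0.016 in these 4 libraries and 1 in the fit of all 23), and shares 18.0% of its 50-base windows with Mptx1. The 4 higher genes were Gm3776, Gsta4, B3gnt7 and Papss2. Gsta4, a glutathione transferase, had 107 and 115 CPM in Cpa3Cre/+, against 46.5 and 47.0 CPM in Cpa3+/+. Papss2, which makes the sulfate donor of sulfotransferases, had 990 and 1109 CPM in Cpa3Cre/+, against 369 and 322 CPM in Cpa3+/+. No mast cell gene was among the 8 by edgeR in these 4 libraries, where their adjusted p was 0.121 or more and their log2 fold changes were −3.81 for Cpa3, −3.08 for Mcpt1 and −3.43 for Mcpt2. Without the filter on low counts the 23-library fit called 77 of 32067 genes (0.24%), 30 lower and 47 higher, which included Cpa3, Mcpt1, Mcpt2, Mcpt4, Mcpt9, Cma2, Tpsb2, Fcer1a and Ms4a2.

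Whether the genotype difference after immunization departed from that in the other states was tested in the same model as the immunized effect minus the mean of the effects in the naive, day 1, day 3 and day 5 states. No gene passed an adjusted p of 0.05 by edgeR (106 lower and 99 higher at an unadjusted p of 0.05) or by DESeq2. The extra difference of Cpa3 was −0.73 ± 1.07 and that of Mcpt1 −1.25 ± 0.82 (edgeR unadjusted p = 0.501 and 0.148). It was −2.71 ± 1.32 for Fcer1a, −3.16 ± 1.52 for Ms4a2 and −2.67 ± 1.30 for Mcpt9 (edgeR unadjusted p = 0.0552, 0.0528 and 0.0551). The difference of the mast cell genes was therefore not shown to be particular to the immunized state.

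B cell follicle transcripts were high in 1 library of each genotype. Lymphoid follicles of the gut hold naive B cells, follicular dendritic cells and high endothelial venules. Peyer's patches were removed before RNA extraction, per the labels' protocols, while isolated lymphoid follicles lie within the wall. Which structure the transcripts came from, remnants of patches included, was not tested. Cr2, a complement receptor of B cells and follicular dendritic cells, had 0.582 and 14.4 CPM in Cpa3Cre/+ replicates 1 and 2, against 19.8 and 0.0811 CPM in Cpa3+/+ replicates 1 and 2. Fcer2a, the low-affinity IgE receptor of follicular B cells, had 0.146 and 16.4 CPM in Cpa3Cre/+, against 13.6 and 0.324 CPM in Cpa3+/+. Glycam1, a ligand for L-selectin made by high endothelial venules, had 0.0728 and 13.6 CPM in Cpa3Cre/+, against 14.6 and 0 CPM in Cpa3+/+. Cpa3Cre/+ replicate 2 and Cpa3+/+ replicate 1 were thus the high libraries, and the other 2 were low.

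The same pair was high for most of the list, and in 22 of the 29 genes tested the high library of each genotype was over 2-fold above its partner. Ighm, the IgM heavy chain, had 41.0 and 208 CPM in Cpa3Cre/+, against 199 and 48.6 CPM in Cpa3+/+. Ighd, the heavy chain of naive B cells, had 1.16 and 27.0 CPM in Cpa3Cre/+, against 24.0 and 1.22 CPM in Cpa3+/+. Ms4a1, which encodes CD20, had 0.874 and 11.8 CPM in Cpa3Cre/+, against 16.4 and 0.649 CPM in Cpa3+/+. Pax5, the B cell identity factor, had 0.655 and 9.77 CPM in Cpa3Cre/+, against 13.9 and 0.405 CPM in Cpa3+/+. Blnk, an adaptor of B cell receptor signalling, did not follow, with 41.5 and 43.0 CPM in Cpa3Cre/+, against 36.0 and 34.9 CPM in Cpa3+/+. In 28 of the 29 genes tested, the 2 highest of the 4 immunized libraries were Cpa3Cre/+ replicate 2 and Cpa3+/+ replicate 1, and in 23 of 29 the highest of all 23 libraries was 1 of these 2. The median ratio of replicate 2 to replicate 1 was 5.70 in Cpa3Cre/+, and that of replicate 1 to replicate 2 was 5.65 in Cpa3+/+. Between the 2 high libraries the ratio of Cpa3Cre/+ to Cpa3+/+ had a median of 0.906 and ran from 0.634 to 1.21, and between the 2 low libraries its median was 1.13.

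Set against each gene's median over 23 libraries, the follicle genes stood at a median of 1.12-fold in Cpa3Cre/+ replicate 1 and 4.79-fold in replicate 2, against 5.29-fold and 0.937-fold in Cpa3+/+ replicates 1 and 2. Only 1 library of another state came close, Cpa3Cre/+ day 1 replicate 2 at 4.06-fold, followed by Cpa3+/+ day 5 replicate 2 at 2.28-fold. Between the genotypes 13 of the 29 genes had a negative fold change and the median was 0.05. None of the 29 passed an unadjusted edgeR p of 0.05 and none had non-overlapping groups with a 2-fold difference of means. Leaving out the single high library of a genotype set the sign of the list, at a median of 1.99 without Cpa3+/+ replicate 1 and −2.06 without Cpa3Cre/+ replicate 2. With both left out of the 23-library fit, the follicle genes had a median of 0.15 and the mast cell proteases a median of −4.84. That fit keeps only the male Cpa3Cre/+ library and takes the sex difference from the other states. In CPM, 8 of the 9 proteases were at least 2-fold lower in Cpa3Cre/+ replicate 1 than in Cpa3+/+ replicate 2. Of all genes tested, 4.91% were at least 2-fold lower and 4.68% at least 2-fold higher in that pair.

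**Figure D3:**
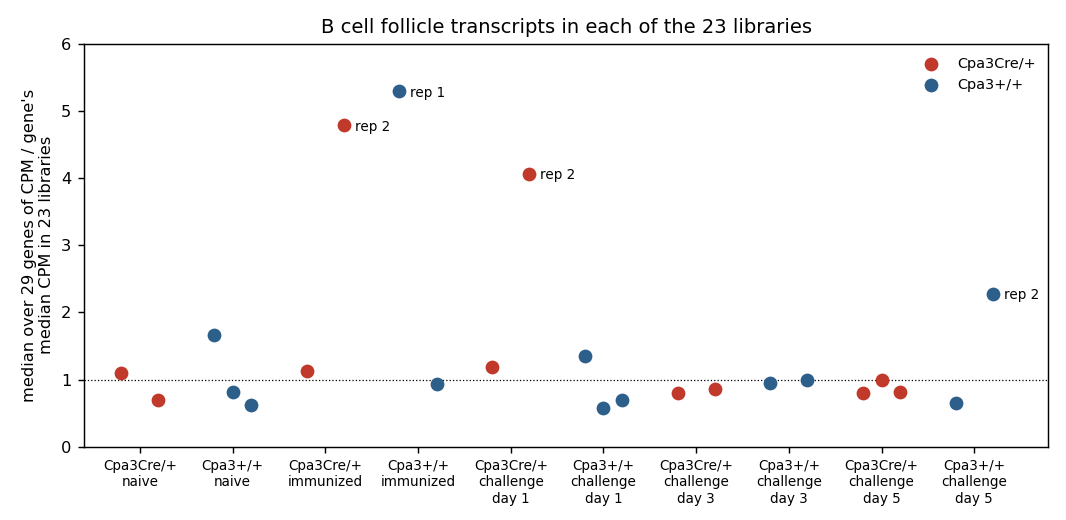
Median, over 29 B cell follicle genes, of CPM divided by the gene's median CPM in 23 libraries, for each library by state, with Cpa3Cre/+ in red and Cpa3+/+ in blue. The dotted line marks 1, and libraries above 2 are labelled with their replicate number. Cpa3Cre/+ replicate 2 at 4.79 and Cpa3+/+ replicate 1 at 5.29 stand apart from their group partners at 1.12 and 0.937.

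Genes of antigen presentation, which were not in the follicle list, were also higher in the same 2 libraries. The 10 genes of antigen presentation by MHC class II summed to 876 and 1346 CPM in Cpa3Cre/+, against 1338 and 876 CPM in Cpa3+/+, and all 10 overlapped between genotypes. Ighg3 had 5.75 and 32.5 CPM in Cpa3Cre/+, against 47.0 and 4.46 CPM in Cpa3+/+. The germinal centre genes were less even. Klhl6 and Gcsam, both of germinal centre B cells, were highest in Cpa3+/+ replicate 1. Klhl6 had 1.89 and 4.05 CPM in Cpa3Cre/+, against 10.01 and 2.76 CPM in Cpa3+/+, and Gcsam had 0.946 and 1.30 CPM in Cpa3Cre/+, against 4.07 and 0.811 CPM in Cpa3+/+. Mybl1, a transcription factor of germinal centre B cells, was the 1 of 13 tested that passed an unadjusted edgeR p of 0.05. In the lower direction 0.441% of all genes tested did. Mybl1 had 0.874 and 1.30 CPM in Cpa3Cre/+, against 5.11 and 2.43 CPM in Cpa3+/+ (log2 fold change −1.75 ± 0.65, edgeR unadjusted p = 0.0151). Itga4 and Prkcb, an integrin chain and a kinase of lymphocytes, and Klhl6 were among the 8 genes most raised in Cpa3+/+ replicate 1 over the other 3 libraries.

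The plasma cell transcripts Igha and Jchain, named after their values were seen, did not follow the follicle libraries. Igha, the IgA heavy chain, had 5320 and 3013 CPM in Cpa3Cre/+, against 2861 and 2428 CPM in Cpa3+/+, and Jchain, which joins IgA dimers, had 1193 and 591 CPM in Cpa3Cre/+, against 657 and 537 CPM in Cpa3+/+. Cpa3Cre/+ replicate 1 was the highest of the 4 libraries for both, and neither passed an unadjusted edgeR p of 0.05. Of the 21 plasma cell and immunoglobulin constant genes tested 13 had a positive and 8 a negative fold change (median 0.27). Without overlap, 7 were higher and 1 lower in Cpa3Cre/+, against 24.9% and 22.9% of all genes tested. Immunoglobulin variable segments, which differ between animals with their plasma cell clones, made up 187 of the tested genes. Of these, 10.7% were at least 2-fold lower and 18.2% at least 2-fold higher in Cpa3Cre/+ without overlap, against 3.06% and 1.83% of all genes. Ighv8-8, called in the fit of the 4 libraries, had 4.88 and 4.51 CPM in Cpa3Cre/+, against 21.3 and 22.5 CPM in Cpa3+/+, while no other library exceeded 8.19 CPM.

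Paneth cell genes were lower in Cpa3Cre/+ jejunum. Paneth cells at the crypt base secrete lysozyme, alpha-defensins and other antimicrobial proteins. All 16 genes tested of this list had a negative fold change in the 23-library fit (median −0.87), and the median was −1.04 in the 4 libraries alone. None passed an unadjusted edgeR p of 0.05 in the fit of all 23 libraries. Of the 16, 13 had both Cpa3Cre/+ libraries below both Cpa3+/+ libraries, and 9 were at least 2-fold lower, against 22.9% and 3.06% of all genes tested. Defa22, with at most 1 read in any of the 4 libraries, was the 1 gene with non-overlapping groups and Cpa3Cre/+ higher. Lyz1, the Paneth cell lysozyme, had 4248 and 2648 CPM in Cpa3Cre/+, against 6518 and 7173 CPM in Cpa3+/+. Defa30, an alpha-defensin, had 502 and 473 CPM in Cpa3Cre/+, against 975 and 987 CPM in Cpa3+/+. Mmp7 had 64.2 and 54.3 CPM in Cpa3Cre/+, against 151 and 163 CPM in Cpa3+/+. Both Cpa3Cre/+ libraries were low in these 3 genes, and for Lyz1 replicate 2 was the lower of them. Without Cpa3Cre/+ replicate 2 the list median was −0.61. In the 4 libraries alone 12 of the 15 genes tested were lower at an unadjusted edgeR p of 0.05. Of all genes in that fit 7.24% were. Mmp7 (edgeR adjusted p = 0.032) and Ang4 (edgeR adjusted p = 0.0333) also passed an adjusted p of 0.05, as did 0.0521% in either direction. Over the other 19 libraries Mmp7 ran from 40.6 to 236 CPM, so both groups lay within the range of the series. Defensin genes share sequence, with 92.0% of the 50-base windows of Defa17, 52.4% of those of Defa30 and 28.1% of those of Defa24 found in another gene, so that reads of Defa17 in particular may come from a relative. Reg3g, an antimicrobial lectin that epithelium raises on contact with bacteria, did not follow the list, with 1143 and 149 CPM in Cpa3Cre/+, against 902 and 1243 CPM in Cpa3+/+. Cpa3Cre/+ replicate 2 alone was low in Reg3g.

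**Figure D4:**
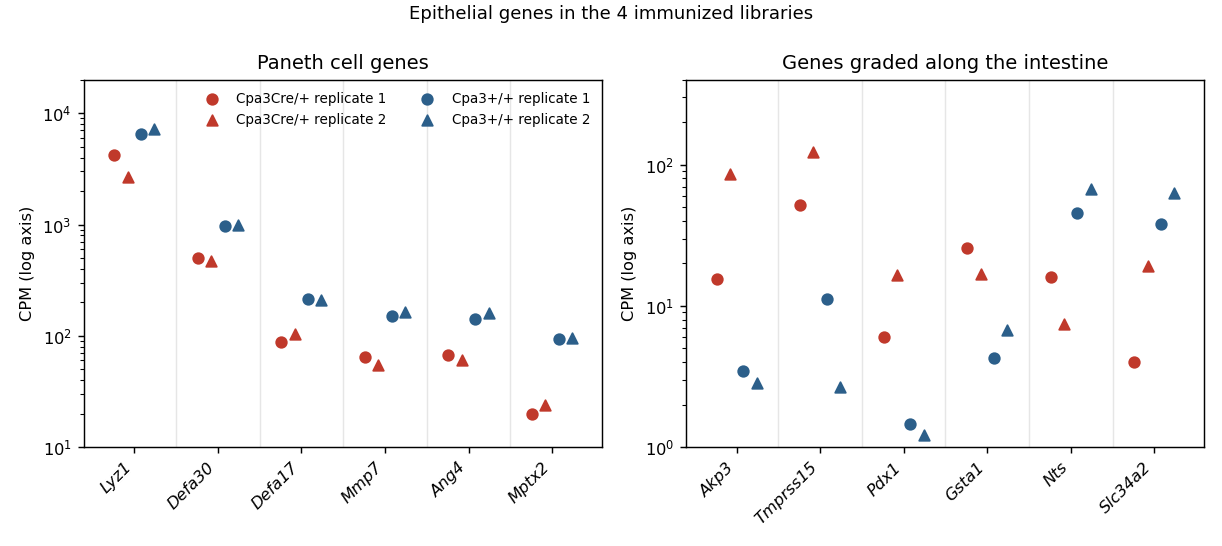
Levels in CPM (log axes) of 6 epithelial genes made by Paneth cells or called in the 4 libraries (left) and of 6 genes graded along the small intestine (right) in the 4 immunized libraries. Red symbols are Cpa3Cre/+ and blue symbols Cpa3+/+, with circles for replicate 1 and triangles for replicate 2. The left-hand genes are lower in both Cpa3Cre/+ libraries. On the right, the 4 proximal genes Akp3, Tmprss15, Pdx1 and Gsta1 are higher and the 2 distal genes Nts and Slc34a2 lower in Cpa3Cre/+.

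Genes with a known gradient along the small intestine differed between the groups. Tmprss15, the enteropeptidase of duodenal enterocytes, had 51.8 and 123 CPM in Cpa3Cre/+, against 11.2 and 2.68 CPM in Cpa3+/+ (log2 fold change 3.34 ± 1.48, edgeR unadjusted p = 0.0379). Gsta1, a glutathione transferase of proximal enterocytes, had 25.9 and 16.7 CPM in Cpa3Cre/+, against 4.28 and 6.73 CPM in Cpa3+/+. In the opposite direction, Nts, the neurotensin gene of distal enteroendocrine cells, had 16.0 and 7.48 CPM in Cpa3Cre/+, against 45.2 and 67.9 CPM in Cpa3+/+. Slc34a2, a phosphate transporter of distal enterocytes, had 4.004 and 19.1 CPM in Cpa3Cre/+, against 38.0 and 63.1 CPM in Cpa3+/+. The groups did not overlap in any of these 4 genes, but Tmprss15 and Slc34a2 were named after their values were seen. Of the 4, only Gsta1 was in the lists of proximal and distal genes counted next. Of the 12 proximal genes tested 11 had a positive fold change (median 0.58) and 4 were at least 2-fold higher without overlap, as were 1.83% of all genes tested. The fitted median was −0.27 without Cpa3Cre/+ replicate 2 and −0.11 with both follicle-rich libraries left out. Both fits keep only the male Cpa3Cre/+ library and take the sex difference from the other states. In CPM, 8 of the 12 genes were higher in Cpa3Cre/+ replicate 1 than in Cpa3+/+ replicate 2, and 4 were lower. Of the 9 distal genes tested 7 had a negative fold change (median −0.58). Without overlap, 3 were lower and none higher in Cpa3Cre/+, against 22.9% and 24.9% of all genes tested. Fgf15, the hormone gene of the terminal ileum, had 0 reads in Cpa3Cre/+, against 0.276 and 2.92 CPM in Cpa3+/+, and passed an unadjusted edgeR p (0.0371). The position along the jejunum from which each piece was taken is not given in the labels, and a part of it in the epithelial differences was not tested.

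Absorptive enterocyte genes were mostly at higher CPM in Cpa3Cre/+. Of the 21 tested 14 had both Cpa3Cre/+ libraries above both Cpa3+/+ libraries, as did 24.9% of all genes tested, and the median log2 fold change was 0.17. Apoa4, an apolipoprotein of chylomicrons, had 19630 and 33584 CPM in Cpa3Cre/+, against 13978 and 11394 CPM in Cpa3+/+. Alpi, the general intestinal alkaline phosphatase, had 1232 and 1648 CPM in Cpa3Cre/+, against 613 and 683 CPM in Cpa3+/+. Of 16 genes of sugar uptake and fructose use 13 were higher without overlap, against the same 24.9% of all genes (median 0.36). Without Cpa3Cre/+ replicate 2 the fitted medians were −0.36 for the enterocyte genes and −0.17 for the sugar genes. They were −0.38 and −0.09 with both follicle-rich libraries left out. Both fits keep only the male Cpa3Cre/+ library and take the sex difference from the other states. In CPM, Cpa3Cre/+ replicate 1 exceeded Cpa3+/+ replicate 2 in 17 of 21 enterocyte genes and 14 of 16 sugar genes. Slc2a5, the fructose transporter, had 328 and 235 CPM in Cpa3Cre/+, against 164 and 145 CPM in Cpa3+/+. None of either list passed an unadjusted edgeR p of 0.05 in the 23-library fit. Tuft cell genes, of a rare chemosensory cell, were uneven: Sh2d6 had 10.6 and 10.5 CPM in Cpa3Cre/+, against 4.76 and 3.73 CPM in Cpa3+/+, while Hpgds, which mast cells make as well, was lower in Cpa3Cre/+ at 5.53 and 5.57 CPM, against 9.39 and 7.62 CPM in Cpa3+/+.

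Genes of T cells and intraepithelial lymphocytes were mostly at higher CPM in Cpa3Cre/+. Of the 24 tested 22 had a positive fold change (median 0.63). Without overlap, 14 were higher, against 24.9% of all genes tested, and 6 were at least 2-fold higher, against 1.83%. None passed an unadjusted edgeR p of 0.05. Gzma, a granzyme of cytotoxic lymphocytes, had 53.2 and 103 CPM in Cpa3Cre/+, against 34.7 and 26.8 CPM in Cpa3+/+. Ccl5, a chemokine they release, had 11.5 and 29.6 CPM in Cpa3Cre/+, against 10.01 and 7.14 CPM in Cpa3+/+. Cd4 did not follow the list, with 9.75 and 15.3 CPM in Cpa3Cre/+, against 25.3 and 12.8 CPM in Cpa3+/+, and was highest in the Cpa3+/+ library with follicle transcripts. The fitted list median was −0.30 without Cpa3Cre/+ replicate 2 and 0.09 with both follicle-rich libraries left out. Both fits keep only the male Cpa3Cre/+ library and take the sex difference from the other states. In CPM, 22 of the 24 genes were higher in Cpa3Cre/+ replicate 1 than in Cpa3+/+ replicate 2.

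Tissue layers and blood also differed. All 5 tested red blood cell genes were at least 2-fold lower in Cpa3Cre/+ without overlap, as were 3.06% of all genes tested. Of the 5, 1 was lower at an unadjusted edgeR p of 0.05, as were 0.441% of all genes tested. Hbb-bs, a beta-globin gene, had 10.3 and 19.7 CPM in Cpa3Cre/+, against 43.6 and 48.3 CPM in Cpa3+/+, and the 19 libraries of other states ran from 11.1 to 187 CPM. Of the 19 smooth muscle genes 18 were lower in Cpa3Cre/+ without overlap, against 22.9% of all genes tested, and none passed an unadjusted edgeR p of 0.05 in the 23-library fit. They summed to 2767 and 2087 CPM in Cpa3Cre/+, against 3899 and 3216 CPM in Cpa3+/+, and Myh11, the smooth muscle myosin heavy chain, had 262 and 159 CPM in Cpa3Cre/+, against 452 and 342 CPM in Cpa3+/+. The fitted median of that list was −0.24 with sex as a covariate and −0.72 in the 4 libraries alone. It was 0.50 without Cpa3Cre/+ replicate 2 and 0.59 with both follicle-rich libraries left out. These 2 fits keep only the male Cpa3Cre/+ library and take the sex difference from the other states. In CPM, 18 of the 19 genes were lower in Cpa3Cre/+ replicate 1 than in Cpa3+/+ replicate 2. Of 20 macrophage and dendritic cell genes 9 were lower without overlap, again against 22.9% of all genes tested, and none passed an unadjusted edgeR p of 0.05. An example was Itgam, an integrin chain, with 8.01 and 5.96 CPM in Cpa3Cre/+, against 10.8 and 10.5 CPM in Cpa3+/+. Of 7 eosinophil genes tested 1 was lower in Cpa3Cre/+ without overlap, against 22.9% of all genes tested, and the other 6 overlapped. The cytokine genes Il4, Il5, Il13 and Il9 were too low to be tested, and Il4 had 0.0728 and 0.153 CPM in Cpa3Cre/+, against 0.276 and 0.243 CPM in Cpa3+/+.

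**Figure D5:**
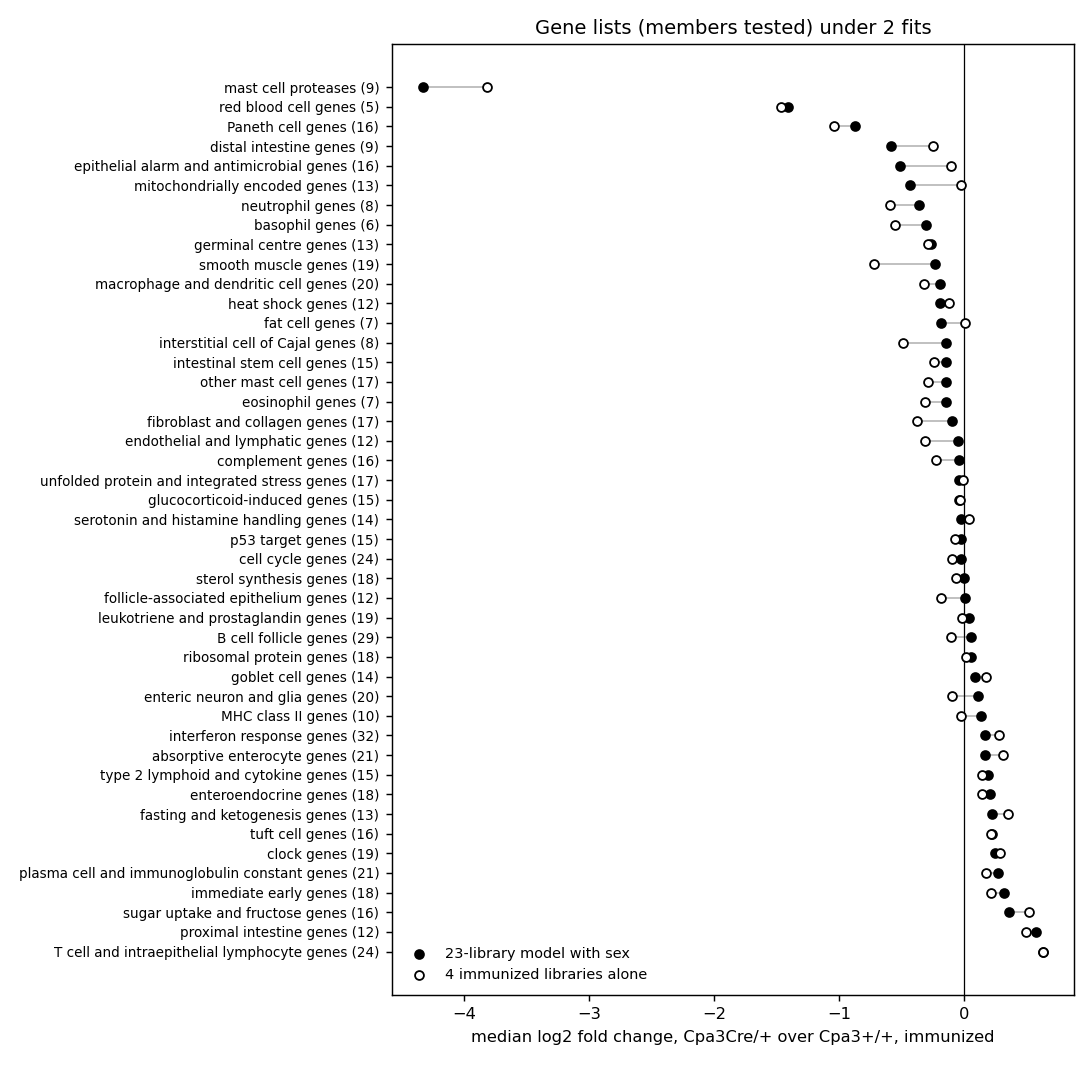
Median log2 fold change of Cpa3Cre/+ over Cpa3+/+ after immunization for each gene list with at least 5 tested members (number tested in parentheses), in the 23-library model (filled) and in the 4 immunized libraries alone (open). The mast cell proteases stand at −4.33 and −3.81, the red blood cell genes at −1.41 and −1.47 and the Paneth cell genes at −0.87 and −1.04, and most other lists lie within 1 of 0.

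Single libraries also carried genes of their own. In Cpa3Cre/+ replicate 1, the male, the glucocorticoid-responsive Ras-related gene Rasd1 had 12.5 CPM, against 0.993 to 1.38 CPM in the other 3. In the same library Socs3, a feedback inhibitor of cytokine signalling, had 244 CPM, against 30.7 to 51.9 CPM in the other 3 and at most 64.9 CPM in the 19 libraries of other states. Dbp, a clock output gene that changes with time of day, had 143 CPM there, against 15.2 to 40.8 CPM in the other 3. In Cpa3Cre/+ replicate 2 Ces2b, a carboxylesterase, had 76.2 CPM, against 4.54 to 7.73 CPM in the other 3, and Aqp8, a water channel, had 120 CPM, against 4.22 to 20.3 CPM in the other 3. In Cpa3+/+ replicate 2 Duox2, an epithelial oxidase, had 59.2 CPM, against 28.2 and 15.5 CPM in Cpa3Cre/+ and 10.7 CPM in Cpa3+/+ replicate 1. The genes next to Cpa3 on chromosome 3 were read as a check of the locus, and 3 of 6 tested had a negative fold change. Tm4sf4, a membrane protein of epithelium, was the widest apart at 339 and 170 CPM in Cpa3Cre/+, against 64.1 and 86.9 CPM in Cpa3+/+ (log2 fold change 1.32 ± 0.72, edgeR unadjusted p = 0.085).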

How the data were processed

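Whole jejunum freed of fat and Peyer's patches was extracted with a PureLink kit and sequenced from stranded TruSeq libraries, per the labels' protocols. The deposited values are raw counts of reads per gene, which the authors made with STAR and featureCounts of Subread 1.5.1 on mm10 (GRCm38), per the submitters' processing notes. The strand setting and the annotation release behind the counts were not stated there. Of 55487 Ensembl genes 55227 were given names from GENCODE vM21, and the 260 without a name held 0.00137% of reads and were not named.

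Groups came from the titles. The 23 libraries were fitted with edgeR 4.0.16 in R 4.3.3 (TMM scaling, low-count filter by group, 10 group means plus sex, robust quasi-likelihood F test), with Benjamini-Hochberg adjustment over 17236 genes and a threshold of 0.05. The SE was taken from the fold change and the F statistic (its size divided by √F) and is approximate. The script was tested on simulated data. A count ratio has an exact 95% interval for counting error only. Libraries of this depth leave genes under about 1 CPM at few reads, as the intervals show. DESeq2 1.42.0, other scaling, no filter, no sex covariate, female libraries, the 4 libraries alone, replicate blocks and leaving out each library were tried. Same-numbered libraries were not shown to be paired.

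The members and gene lists were chosen with earlier results of these data known. Named were the mast cell genes, the 10 genes in each direction with the smallest p among non-overlapping groups of at least 1 CPM in either group mean (predicted genes, receptor segments, Y-linked genes and Xist left out), up to 4 genes a list by p, 8 follicle genes and 8 genes per library by their ratio to the other 3. Genes chosen after their values were seen were Ang4, Cd4, Defa22, Defa24, Fcer1g, Gm3776, Gsta4, Igha, Ighg3, Ighm, Ighv8-8, Il4, Il5, Il9, Il13, Jchain, Lyz1, Mptx2, Papss2, Prss34, Reg3g, Slc34a2 and Tmprss15. Not every gene these rules select is reported here. The follicle-free comparison and the crossed block were added after seeing the data.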

Additional observations from a re-analysis of the deposited data

How the results depend on the processing

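The call of 0 genes in the genotype comparison stayed at 0 with DESeq2, with its size factors, without the sex covariate, in female libraries, with a replicate block in the 23-library fit, with both follicle-rich libraries left out and with each of the 4 libraries left out in turn (0 to 0). It was 77 without the filter on low counts and 8 in the 4 libraries alone. The difference of the immunized effect from the mean of the other states gave 68 genes without the filter and 0 in its other settings. The replicate numbers were not shown to pair the libraries (correlation of deviations −0.179), and a replicate block in the 4 libraries alone gave 0 genes. The crossed pairing, added after seeing the data, gave 71 genes there. The median of the mast cell proteases was −3.24 in female libraries and ran from −4.71 to −3.24 with 1 library left out, so its sign did not depend on a library. The median of the follicle genes ran from −2.06 to 1.99, and its sign did. Fits without Cpa3Cre/+ replicate 2 kept only the male of that group and took the sex difference from the other states. Over 17 mast cell genes, 220 of 232 values under other settings stayed on the same side of the threshold. The other 12 were then called, 9 without the filter and 3 with the crossed pairing. Of 644 list medians under other settings 163 moved by more than the spread between replicates, and 11 of 46 lists kept their sign in all settings. The cause of these differences was not tested. Depth limits genes at 0 to 3 reads in Cpa3Cre/+, whose ratios have wide counting intervals.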

Other observations

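Of 18 enteroendocrine genes tested 11 had a positive and 7 a negative fold change. Without overlap, 7 were higher and 3 lower in Cpa3Cre/+, against 24.9% and 22.9% of all genes tested. Cck, the cholecystokinin gene, had 46.0 and 53.5 CPM in Cpa3Cre/+, against 28.7 and 22.2 CPM in Cpa3+/+, while Gcg, which encodes the glucagon-like peptides, had 33.4 and 30.5 CPM in Cpa3Cre/+, against 46.4 and 44.9 CPM in Cpa3+/+. The genotypes did not overlap in either gene, and neither passed an unadjusted edgeR p of 0.05. Of 32 interferon response genes 22 had a positive fold change and 15 were higher in Cpa3Cre/+ without overlap, against 24.9% of all genes tested. Their median log2 fold change of 0.17 turned to −0.59 without Cpa3Cre/+ replicate 2 and to −0.45 with both follicle-rich libraries left out. Both fits keep only the male Cpa3Cre/+ library and take the sex difference from the other states. In CPM, 21 of the 32 genes were higher in Cpa3Cre/+ replicate 1 than in Cpa3+/+ replicate 2, and 11 were lower. Tap1, a peptide transporter of antigen presentation, had 84.2 and 96.8 CPM in Cpa3Cre/+, against 64.7 and 58.2 CPM in Cpa3+/+, but Ifit2, an interferon-induced antiviral gene, had 7.57 and 9.16 CPM in Cpa3Cre/+, against 13.3 and 10.1 CPM in Cpa3+/+.

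Leukotriene and prostaglandin genes, some of which mast cells use, had a median log2 fold change of 0.04 over 19 tested. Ltc4s, the leukotriene C4 synthase gene, was higher in both Cpa3Cre/+ libraries at 8.08 and 10.2 CPM, against 5.32 and 4.46 CPM in Cpa3+/+. Clock genes were uneven between the libraries of a genotype. Per3 had 30.8 and 8.02 CPM in Cpa3Cre/+, against 6.42 and 16.9 CPM in Cpa3+/+, and Ciart had 6.48 and 0.611 CPM in Cpa3Cre/+, against 0.414 and 0.892 CPM in Cpa3+/+. Cpa3Cre/+ replicate 1 was the highest of the 4 for both, as it was for Dbp, and the time of day of sampling is not given in the labels.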
